A study of Mus musculus with 10 samples.

Results

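Complex I of the respiratory chain was described here through the 46 protein-coding genes of the count table whose symbol names a subunit (Ndufa, Ndufab, Ndufb, Ndufc, Ndufs or Ndufv followed by a number) or an assembly factor (Ndufaf followed by a number). They comprised 38 subunit genes and 8 assembly factor genes of 49315 genes in all, and lay on 17 chromosomes. All 46 passed the filter on low counts, as did 14714 genes of the table. The rule reads gene names and takes no measured value, although it was set with earlier results of these data known.

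RNA was sequenced from the gastrocnemius, a mixed but mostly fast-twitch calf muscle, of 10 male mice on a C57BL6J background, of which 5 were AHRfl/fl and 5 were AHRmKO. The study cut out red portions of this muscle for fibre bundles and froze the rest or isolated mitochondria from it. Which portion gave the RNA was not given in the sources used here. Both genotypes carried a floxed Ahr gene, which encodes the aryl hydrocarbon receptor, a ligand-activated transcription factor that responds to compounds in tobacco smoke. In AHRmKO mice the flanked exon 2 was removed by the tamoxifen-dependent MerCreMer recombinase under the human ACTA1 promoter (HSA-MCM), which is active in skeletal myofibres, so other cells of the muscle kept the gene. The AHRfl/fl mice were littermates without Cre, and whether they received tamoxifen as well was not given in the sources used here. Every mouse had inhaled cigarette smoke on 5 days per week for 16 weeks, and the muscle was taken 72 h after the last exposure per the series record, where the study's text gives a range that ends at this time. Air-exposed mice were not analysed here, so nothing below compares smoke with air. The mice were described as aged, with no age given in numbers in the sources used here, and which of them shared a litter was not given, and p-values measure the spread between these 10 mice.

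Complex I (NADH:ubiquinone oxidoreductase) takes electrons from NADH, passes them along a chain of iron-sulfur clusters to ubiquinone and pumps protons across the inner mitochondrial membrane. It is an L-shaped enzyme with a matrix arm, which holds the NADH-oxidising and the ubiquinone-reducing modules, and a membrane arm, which holds the proton pumps. Core subunits carry the chemistry and are shared with bacteria, supernumerary subunits surround them in animals, and assembly factors build the modules but are not kept in the finished enzyme. The pump subunits are encoded by the mitochondrial genome and all other parts by nuclear genes, so its synthesis draws on both genomes. In skeletal muscle the enzyme is abundant, more so in oxidative than in glycolytic fibres.

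The libraries held 30393035 to 37954388 counted reads. Ahr itself had 3.13, 2.05, 1.64, 1.95 and 1.33 CPM (read counts scaled to the normalized size of the library) in AHRfl/fl mice 11, 12, 13, 15 and 33, and 1.65, 2.17, 1.54, 1.63 and 0.927 CPM in AHRmKO mice 8, 9, 19, 22 and 34. The groups overlapped (log2 fold change -0.35, SE 0.255, adjusted p = 0.844 by the edgeR quasi-likelihood test), but the count covers the whole gene while only exon 2 is deleted, so it does not check the genotype labels. Myofibre markers (Acta1, Ckm, Mb, Ttn, Tnnt3 and Myh4) summed to between 118365 and 164028 CPM, so every sample held the defining transcripts of muscle fibres. Slow-fibre markers, 9 of 9 detected, summed to between 95.4 and 2028 CPM in AHRfl/fl and between 254 and 2408 CPM in AHRmKO mice, so slow-fibre transcripts differed widely within both groups. Over all genes, 1 of 14714 had an adjusted p under 0.05 (0.0068%), with 21 of 10864 (0.193%) by the DESeq2 Wald test.

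The start regions of 3 core subunits and of 2 assembly factors are shown because AHR and the known regulators of respiratory genes act on such regions. They are the core subunits whose region held the core letters bound by AHR, and the assembly factors whose region held the letters of NRF1. The windows run from 250 bases before to 50 bases after the RefSeq start (GRCm38.p6), are written 5′ to 3′ along the gene, and lie at chr19:4012706-4013005 (minus strand) for Ndufv1, chr2:90904672-90904971 (minus) for Ndufs3, chr19:3912725-3913024 (minus) for Ndufs8, chr4:24897833-24898132 (plus) for Ndufaf4 and chr2:140170396-140170695 (plus) for Ndufaf5. Capitals mark a match, on either strand, to the letters GCGTG (the core of the xenobiotic response element bound by AHR with ARNT, read as CACGC on the other strand), the 10 letters of the NRF1 consensus (a palindrome, in capitals in the windows of Ndufaf4 and Ndufaf5) or CCGGAAGT (ETS factors and GABP, read as ACTTCCGG on the other strand), and in these 5 windows no matches overlap.
Ndufv1: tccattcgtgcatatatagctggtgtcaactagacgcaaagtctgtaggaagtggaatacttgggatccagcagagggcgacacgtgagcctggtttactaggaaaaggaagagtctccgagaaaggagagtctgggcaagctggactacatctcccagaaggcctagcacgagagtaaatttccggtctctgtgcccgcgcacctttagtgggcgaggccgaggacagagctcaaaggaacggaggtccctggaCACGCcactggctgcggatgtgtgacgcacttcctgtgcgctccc
Ndufs3: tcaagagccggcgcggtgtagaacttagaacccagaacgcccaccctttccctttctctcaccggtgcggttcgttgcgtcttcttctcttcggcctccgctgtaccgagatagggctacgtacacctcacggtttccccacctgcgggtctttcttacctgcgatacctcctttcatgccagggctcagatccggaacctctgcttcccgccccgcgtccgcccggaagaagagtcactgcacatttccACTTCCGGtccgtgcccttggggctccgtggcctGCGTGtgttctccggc
Ndufs8: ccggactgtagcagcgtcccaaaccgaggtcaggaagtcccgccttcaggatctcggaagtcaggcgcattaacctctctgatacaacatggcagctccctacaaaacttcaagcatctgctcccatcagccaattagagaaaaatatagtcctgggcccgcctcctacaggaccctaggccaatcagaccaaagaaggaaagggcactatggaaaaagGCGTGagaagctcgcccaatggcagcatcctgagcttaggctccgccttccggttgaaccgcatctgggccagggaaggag
Ndufaf4: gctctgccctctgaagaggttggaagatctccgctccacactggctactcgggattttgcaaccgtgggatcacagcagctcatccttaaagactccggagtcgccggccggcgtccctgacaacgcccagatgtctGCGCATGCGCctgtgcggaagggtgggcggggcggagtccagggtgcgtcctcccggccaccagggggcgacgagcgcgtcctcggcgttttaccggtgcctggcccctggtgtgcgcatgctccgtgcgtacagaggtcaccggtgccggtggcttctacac
Ndufaf5: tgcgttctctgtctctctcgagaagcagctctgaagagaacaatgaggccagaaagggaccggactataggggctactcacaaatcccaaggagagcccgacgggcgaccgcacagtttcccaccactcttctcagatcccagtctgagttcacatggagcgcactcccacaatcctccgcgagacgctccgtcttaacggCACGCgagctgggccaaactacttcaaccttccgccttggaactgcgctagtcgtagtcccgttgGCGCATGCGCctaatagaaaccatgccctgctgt

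Windows were found for 40 of the 46 members, 42 windows in all. Those missing included Ndufs1, Ndufa4l2, Ndufb9, Ndufa2 and Ndufaf6. The 5 letters GCGTG stood in 17 of 35 subunit windows (48.6%) and in 6 of 7 assembly factor windows (85.7%), against 32.4% of all 32851 windows of this length. Some genes had more than 1 window. Counted by gene, the letters stood in 15 of 33 subunits, against 9500 of 27025 genes in all. The windows compared were not matched for base composition. The NRF1 letters stood in 1 subunit window (2.86%, Ndufa11) and in 2 of 7 assembly factor windows (28.6%, Ndufaf4 and Ndufaf5), against 0.971% of all windows. The ETS letters stood in 1 of 35 subunit windows (2.86%, Ndufs3) and in 0 of 7 assembly factor windows, against 3.89% of all. TCAAGGTCA, the letters of the estrogen-related receptors, stood in 0 of the 42 members' windows and in 0.423% of all windows. A match of letters is a description of the window and not a binding site. In the genotype comparison given below, the 15 subunits with GCGTG had a median log2 fold change of -0.083 and the 18 without it a median of -0.096, so the subunits with and without these letters lay close together. The 6 assembly factors with GCGTG had a median of 0.031 and the 1 without it had -0.083, and a single gene gives no spread to compare with.

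Levels were compared per length, as CPM per kilobase of exon averaged over the 10 mice. The 38 subunits had a median of 143, and the lowest was Ndufa4l2 at 6.23 ± 1.72 (SD, n = 10). The assembly factors ran from 25.7 ± 2.02 for Ndufaf1 to 3.81 ± 0.236 for Ndufaf2, with a median of 12.8, so 36 of 38 subunits had a mean above that of the highest assembly factor. The exceptions were Ndufa4l2 and Ndufb2. Ndufaf7 (5.81) and Ndufaf2 were below the lowest subunit per kilobase of exon, but not per kilobase of the longest coding transcript, where they had 7.52 and 16.7 against 7.31 for Ndufa4l2.

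**Figure D1:**
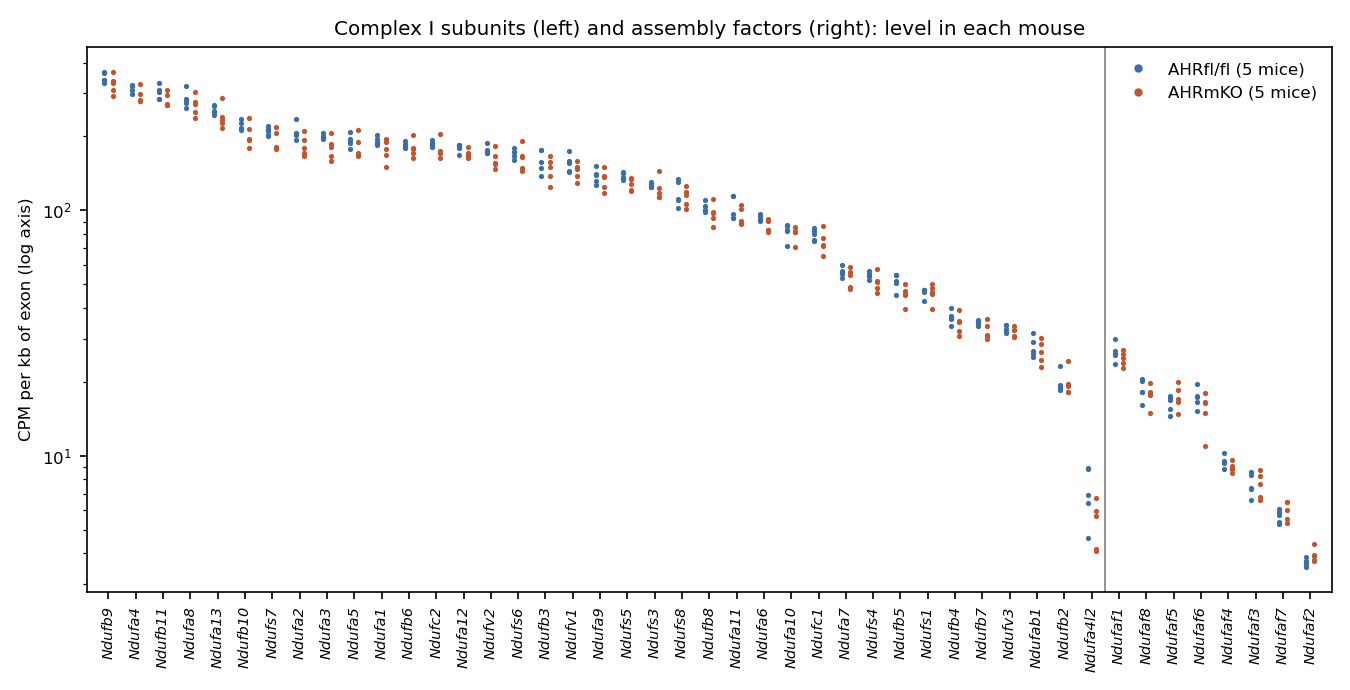
CPM per kilobase of exon (log axis) of each complex I gene, with a point for each of 10 mice coloured by genotype, 37 subunits on the left and 8 assembly factors on the right in order of level. Subunits drawn spanned 6.23 to 337 and assembly factors 3.81 to 25.7, and the points of both genotypes lie over each other at almost every gene.

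Near the top of the order stood Ndufb9, a membrane-arm subunit that binds an acyl carrier protein, at 337 ± 24.4, and Ndufa4, a small membrane protein now counted as a subunit of complex IV, at 303 ± 19.6. Gm49356 on the same strand shares 19.5% of the exon length of Ndufb9, so reads of that stretch may not be separable. Ndufa4 and the next gene, Ndufb11, at 292 ± 20.2, differed by less than 1 SD over the mice. Ndufab1, the mitochondrial acyl carrier protein that also serves fatty acid and lipoic acid synthesis, had 27.1 ± 2.68, and Ndufb2, a small membrane-arm subunit, had 19.8 ± 2.12. With the length of the longest coding transcript in place of the union of exons, the medians were 198 for subunits and 17.7 for assembly factors, Ndufa4 came first at 686, and the 2 orders of the 38 subunits correlated at a Spearman rho of 0.79. The lowest gene, Ndufa4l2, is a paralog of Ndufa4 known for its induction by hypoxia and was last by either length. Raw counts of the subunits were at least 152 and those of the assembly factors between 348 and 1567 per library, all far above 3 counts, the floor that a count of 0 would allow. Within genotypes the CPM of a subunit had a median coefficient of variation of 7.55% (3.92% for Ndufa12 to 23.7% for Ndufa4l2), and that of an assembly factor 8.72%.

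The main comparison asked whether deletion of AHR in myofibres changed these transcripts in smoke-exposed muscle. No subunit and no assembly factor passed an adjusted p of 0.05 in edgeR. The lowest adjusted p was 0.718 (Ndufa2), and by DESeq2 0 of 46 passed as well. At an unadjusted p under 0.05, 4 of 38 subunits were lower in AHRmKO and 0 higher, where 3.38% of all genes were lower and 3.23% higher by the same threshold. No subunit had groups that did not overlap, against 0.714% of all genes on the lower and 0.686% on the higher side. Subunit fold changes were small and lay mostly on one side of 0. AHRmKO had the lower value in 37 of 38 subunits, where 48.5% of all genes had a log2 fold change below 0, and the median log2 fold change was -0.095 for subunits and 0.0056 for all genes. With each library's trends in transcript length and GC content removed, the subunit median was -0.043 and the subunits lower at an unadjusted p under 0.05 were 1 of 38. Members are not independent of each other, and the count carries no test.

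**Figure D2:**
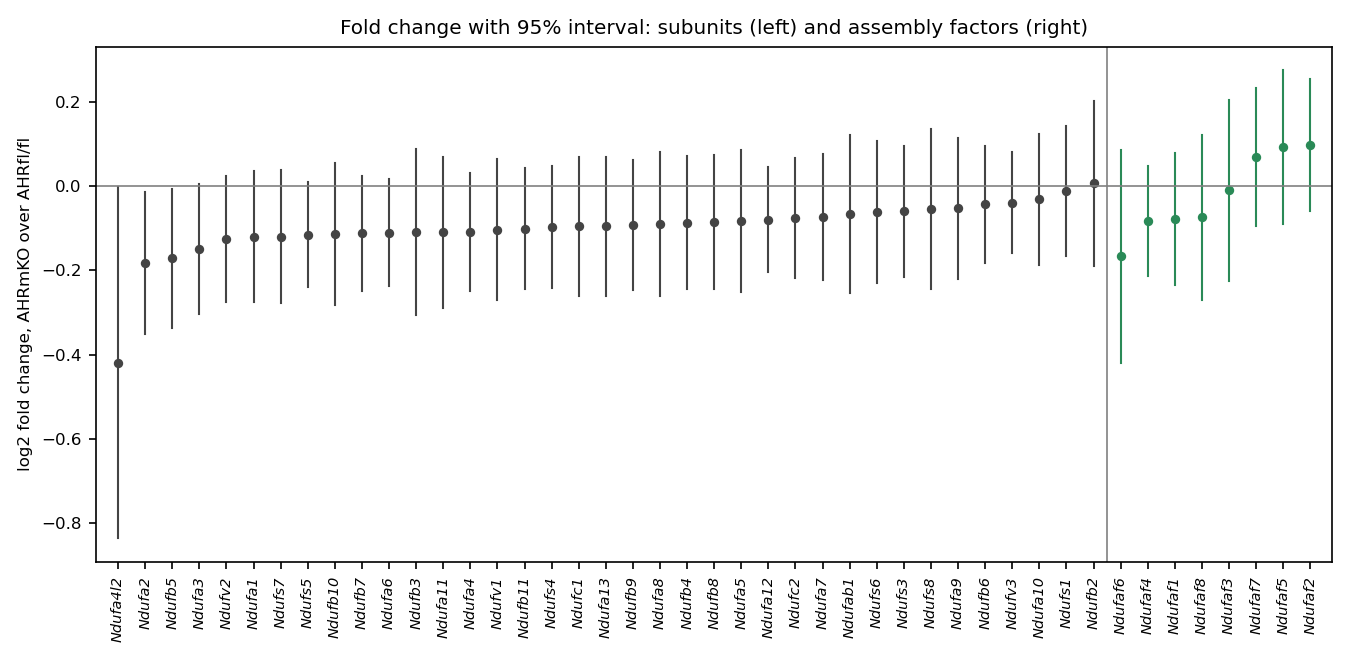
Log2 fold change of AHRmKO over AHRfl/fl for each gene with its 95% interval from edgeR (5 mice per genotype), 37 subunits on the left and 8 assembly factors on the right. The subunits sit between -0.42 and 0.01 with 3 intervals drawn that leave out 0, and the assembly factors between -0.17 and 0.10 with none.

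Among the 7 nuclear core subunits, all had the lower mean in AHRmKO, with a median log2 fold change of -0.10. They are taken first by the ubiquinone module and then by the NADH module. Ndufs7, which carries the last iron-sulfur cluster before ubiquinone, had 344, 362, 368, 348 and 377 CPM in AHRfl/fl and 312, 304, 376, 355 and 309 CPM in AHRmKO mice, in the order AHRfl/fl 11, 12, 13, 15 and 33 and AHRmKO 8, 9, 19, 22 and 34, which is kept below (log2 fold change -0.12, SE 0.0735). Ndufs3, which joins the modules of the matrix arm, had 270, 285, 280, 282 and 271 CPM against 255, 248, 313, 267 and 248 CPM (log2 fold change -0.06, SE 0.0726). In both genes AHRmKO mice 8, 9 and 34 lay below every AHRfl/fl mouse, and in Ndufs3 mouse 19 lay above every one of them. Ndufs8, another carrier of iron-sulfur clusters, had 142, 132, 144, 173 and 168 CPM against 149, 136, 162, 154 and 130 CPM, with wide overlap (log2 fold change -0.05, SE 0.0883). The adjusted p-values of these genes by edgeR were between 0.815 and 0.945. Single mice weighed on the smaller differences. Ndufs8 lay between -0.103 (without AHRfl/fl mouse 12) and -0.0033 (without AHRfl/fl mouse 15), and Ndufs3 between -0.121 (without AHRmKO mouse 19) and -0.034 (without AHRmKO mouse 9). With length and GC trends removed Ndufs3 was -0.00505 and Ndufs7 -0.043, and Ndufs8 turned sign to 0.0038.

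In the NADH module, Ndufv1, which binds NADH and the flavin, had 381, 376, 409, 418 and 461 CPM in AHRfl/fl and 386, 363, 418, 397 and 339 CPM in AHRmKO mice (log2 fold change -0.10, SE 0.0778, adjusted p = 0.846 by edgeR, and -0.057 without AHRfl/fl mouse 33). Ndufv2, its iron-sulfur partner, had 366, 368, 374, 402 and 378 CPM against 334, 332, 392, 357 and 317 CPM, so 4 of 5 AHRmKO mice lay below every AHRfl/fl mouse and mouse 19 lay above all but 1 of them (log2 fold change -0.13, SE 0.0692, adjusted p = 0.798 by edgeR). Ndufs1, the largest core subunit, behaved unlike them. It had 377, 345, 384, 383 and 382 CPM against 388, 405, 369, 376 and 320 CPM, with means of 374 ± 16.3 and 372 ± 31.8 (SD, n = 5) and a log2 fold change of -0.01 (SE 0.0716, 95% interval -0.16 to 0.14 by edgeR). Here mice 8 and 9, which were low for most subunits, had the highest values of all 10 mice.

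The 31 subunit genes outside the core set are called supernumerary here, by gene name alone. They include Ndufa4, now counted as a subunit of complex IV, and its paralog Ndufa4l2. Of these 31 genes, 30 had the lower mean in AHRmKO, with a median log2 fold change of -0.095. An unadjusted p under 0.05 by edgeR was found for 3 of them, Ndufa2, Ndufb5 and Ndufa4l2. Ndufa2 (ENSMUSG00000014294), a thioredoxin-like subunit of the NADH module, had 118, 135, 116, 111 and 117 CPM in AHRfl/fl and 94.9, 97.9, 121, 110 and 103 CPM in AHRmKO mice. AHRmKO mouse 19 lay above all but 1 AHRfl/fl mouse and the other 4 lay below all of them. The log2 fold change was -0.18 (SE 0.0782, 95% interval -0.35 to -0.01), with an edgeR p of 0.036 before and 0.718 after adjustment and an exact two-sided permutation p of 0.0635. Tmco6 on the opposite strand shares 11.5% of the exon length of Ndufa2.

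Ndufb5 (ENSMUSG00000027673, chr3:32736990-32751566, plus strand), a subunit of the membrane arm, had 273, 225, 253, 256 and 271 CPM against 225, 227, 250, 235 and 198 CPM. All 5 AHRmKO mice lay below the AHRfl/fl mean, but AHRfl/fl mouse 12 lay below 4 of them. The log2 fold change was -0.17 (SE 0.0767, 95% interval -0.34 to -0.01), with an edgeR p of 0.043 before and 0.738 after adjustment and an exact two-sided permutation p of 0.0556. Of its exon length 12.3% is shared with Mrpl47 on the opposite strand, and the sources used here do not say whether reads were assigned by strand.

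The fold change farthest from 0 was that of Ndufa4l2 (ENSMUSG00000040280, chr10:127514967-127517154, plus strand), the least abundant subunit gene. It had 7.56, 5.05, 7.0, 9.70 and 9.77 CPM in AHRfl/fl and 6.51, 6.24, 4.48, 7.39 and 4.55 CPM in AHRmKO mice. The means of 7.81 ± 1.99 and 5.83 ± 1.28 (SD, n = 5) differed by a log2 fold change of -0.42 (SE 0.193, 95% interval -0.84 to -0.0021), with an edgeR p of 0.049 before and 0.755 after adjustment and an exact two-sided permutation p of 0.0952. Only 2 AHRmKO mice lay below every AHRfl/fl mouse, and the spread within genotypes relative to the mean was the widest of all subunits (coefficient of variation 23.7%). Its paralog Ndufa4 had means of 434 ± 15.4 and 403 ± 28.1 CPM and a log2 fold change of -0.11 (SE 0.0651, adjusted p = 0.815 by edgeR). With length and GC trends removed the value for Ndufa4 was -0.053.

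**Figure D3:**
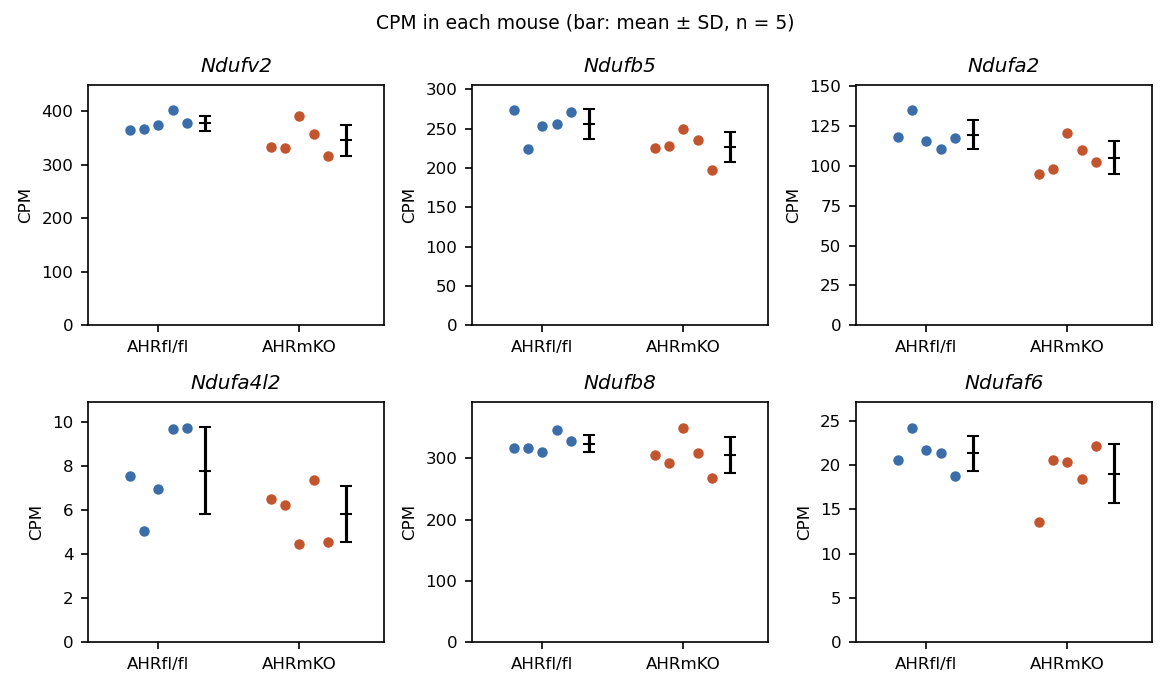
CPM in each mouse for Ndufv2, Ndufb5, Ndufa2, Ndufa4l2, Ndufb8 and Ndufaf6, with the mean and SD of 5 mice per genotype beside the points. In each panel the AHRmKO mean is lower and the points of the genotypes overlap.

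Ndufb8, a membrane-arm subunit whose protein is a common marker of complex I on immunoblots, had 316, 316, 310, 345 and 329 CPM in AHRfl/fl and 306, 293, 350, 309 and 268 CPM in AHRmKO mice. Again 4 AHRmKO mice lay below every AHRfl/fl mouse and mouse 19 lay above every one. The log2 fold change was -0.08 (SE 0.0739, 95% interval -0.24 to 0.08, adjusted p = 0.879 by edgeR), and it was -0.041 without mouse 34 and -0.135 without mouse 19. Ndufb9 had a log2 fold change of -0.09 (SE 0.0712), which was -0.055 without AHRmKO mouse 34 and -0.031 with length and GC trends removed. Ndufab1 had one of -0.07 (SE 0.0874), which was -0.013 without AHRfl/fl mouse 15. The single subunit with a higher mean in AHRmKO was Ndufb2, with 109, 104, 106, 107 and 130 CPM against 108, 102, 137, 110 and 102 CPM (log2 fold change 0.0071, SE 0.091). In this gene 1 mouse of each genotype, AHRfl/fl mouse 33 and AHRmKO mouse 19, stood above the rest, and without mouse 19 the sign turned (-0.072). Further supernumerary subunits with log2 fold changes of -0.11 or below and unadjusted p above 0.05 by edgeR included Ndufa3 (-0.15), Ndufa1 (-0.12), Ndufs5 (-0.12) and Ndufb10 (-0.11), which are small subunits of the membrane arm. Their exact two-sided permutation p, not adjusted, was 0.0476, 0.119, 0.0397 and 0.183 in this order.

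The subunit difference was carried by some of the AHRmKO mice and not by others. For each gene the deviation of log2 CPM from its mean over 10 mice was taken, and the median over the 38 subunits was formed in each mouse. It was 0.016, 0.022, 0.035, 0.073 and 0.096 in AHRfl/fl mice 11, 12, 13, 15 and 33, and -0.098, -0.121, 0.124, 0.0060 and -0.151 in AHRmKO mice 8, 9, 19, 22 and 34. AHRmKO mice 8, 9 and 34 lay below every AHRfl/fl mouse, mouse 22 lay just below them, and mouse 19 had the highest value of all 10. Mouse 34 lay below every AHRfl/fl mouse in 35 of 38 subunits, mouse 9 in 32, mouse 8 in 27, mouse 22 in 11 and mouse 19 in 1. Mouse 19 lay above every AHRfl/fl mouse in 15 subunits. Its counterpart at the other end, mouse 34, was the lowest of the 10 in 21 subunits. The subunits varied together over the mice, so these counts are not separate results. Shares over all genes are not given here for them.

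**Figure D4:**
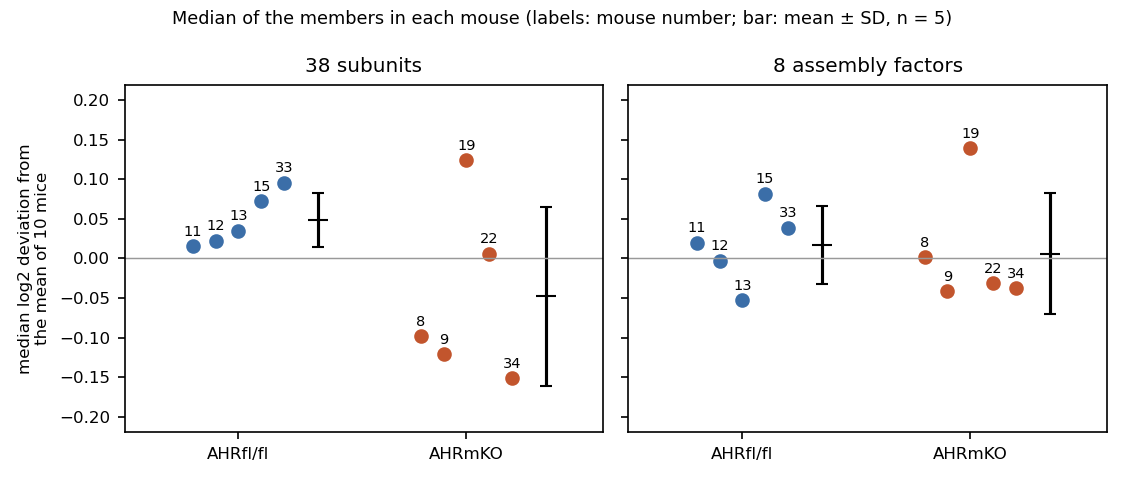
Median over the genes of a group of the log2 deviation from the mean of 10 mice, for each mouse (numbered) with the mean and SD of each genotype, n = 5. For subunits the AHRfl/fl mice sit between 0.016 and 0.096, while the AHRmKO mice spread from -0.151 to 0.124.

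The AHRmKO mice were the more spread in this median (-0.048 ± 0.113 against 0.048 ± 0.0345, SD, n = 5), and the difference in spread was not tested. Summed over the 38 genes, subunit transcripts made 8724 ± 201 CPM in AHRfl/fl and 8156 ± 598 CPM in AHRmKO mice (SD, n = 5), with ranges of 8530 to 9033 and 7579 to 9070 CPM. In 28 of 38 subunits exactly 4 AHRmKO mice lay below the AHRfl/fl mean, and in 5 subunits all 5 did, again without the share over all genes. Leaving out mouse 19 moved the subunit median to -0.135 with 14 of 38 subunits lower at an unadjusted p under 0.05, where 4.05% of all genes were so in the same fit, and none of which passed adjustment by edgeR (lowest adjusted p = 0.549, Ndufa3). Leaving out mouse 34 moved it to -0.068 with 0 such subunits (4.19% of all genes), and leaving out mouse 8, mouse 9 or AHRfl/fl mouse 11 also left 0 (2.81%, 2.74% and 2.39% of all genes). In bulk muscle tissue, fewer cells of a type and less RNA per cell cannot be told apart.

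Several features of the libraries were set beside the subunit median over the 10 mice, with no test. Spearman's rho was 0.07 with the slow-fibre score (the mean log2 CPM of the 9 markers), 0.13 with the share of reads from the mitochondrial genome and -0.52 with the total count. The slow-fibre score was 3.89, 2.09, 3.43, 7.28 and 6.65 in AHRfl/fl mice 11, 12, 13, 15 and 33. In AHRmKO mice 8, 9, 19, 22 and 34 it was 7.49, 3.48, 5.53, 7.06 and 4.43. When this score entered the fit as a further term, the subunit median was -0.111 and 38 of 38 subunits were lower. At an unadjusted p under 0.05 by edgeR 7 were lower, against 4 in the main fit, and 7 were so with 1 surrogate variable. The shares of all genes in these further fits are not given here. Markers of other cells summed to 98.0 to 177 CPM for fat (with Lep and Ucp1 under 0.1 CPM in some mice), 117 to 225 for endothelium, 5.05 to 12.2 for macrophages, 233 to 437 for fibroblasts, 33.3 to 105 for Schwann cells and 102 to 474 for erythroid cells, with overlapping ranges in the genotypes. Slow-fibre markers averaged a sum of 782 CPM in AHRfl/fl and 1059 CPM in AHRmKO mice (9 of 9 higher). The type 2A fibre marker Myh2 averaged 2469 CPM in AHRfl/fl mice (297 to 4218) and 2277 CPM in AHRmKO mice (1173 to 3793). Of the 6 myofibre markers 5 were higher in AHRmKO and 1, Mb, was lower (2907 CPM in AHRfl/fl and 2311 CPM in AHRmKO mice). Erythroid markers averaged 168 CPM in AHRfl/fl and 278 CPM in AHRmKO mice (4 of 4 higher) and endothelial ones 155 and 167 CPM (4 of 4 higher), Schwann cell markers 79.2 and 64.5 CPM (4 of 4 lower) and fibroblast markers 332 and 306 CPM (4 of 4 lower), none past the edgeR test (lowest adjusted p = 0.774). Their part in the result was not tested.

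**Figure D5:**
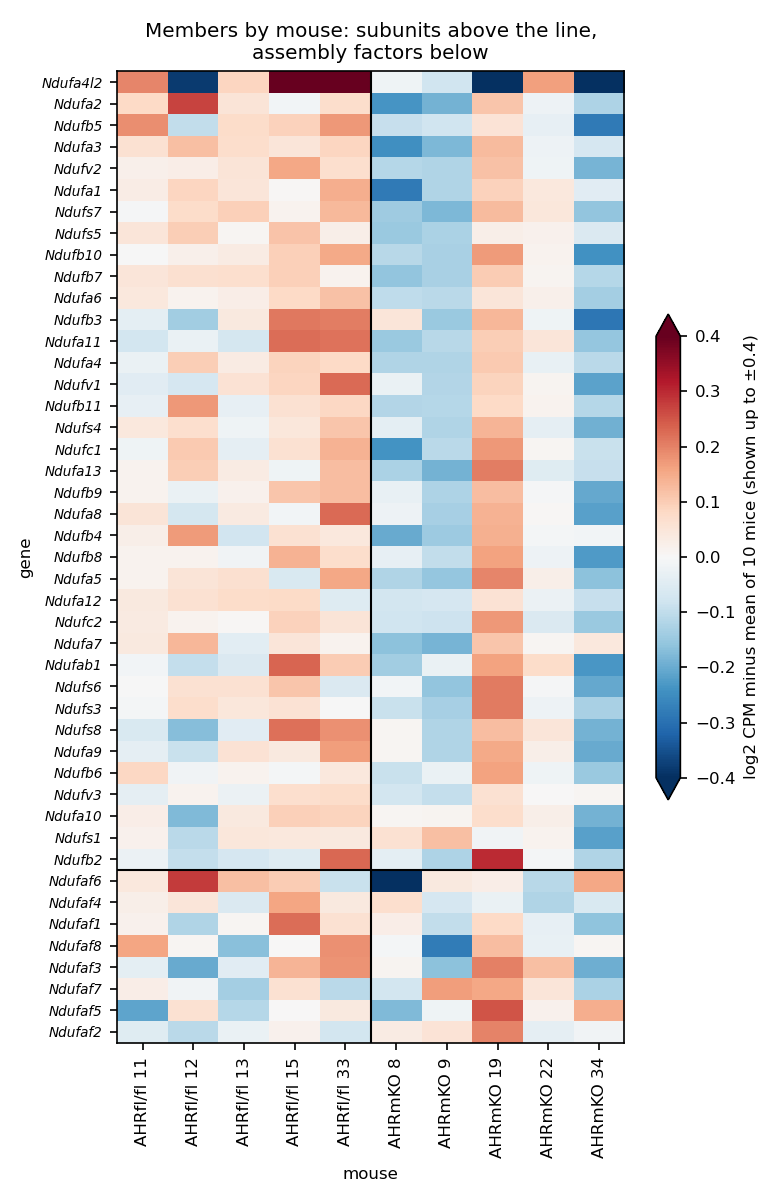
Heat map of log2 CPM minus the mean of 10 mice (colour, shown up to ±0.4) for each gene (rows, 37 subunits above the line and 8 assembly factors below it) in each mouse (columns). Columns of AHRmKO mice 8, 9 and 34 are below the mean in 33, 36 and 36 of the 38 subunits and that of mouse 19 in 3.

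Transcript length moved with the comparison. Across all genes the median log2 fold change was -0.050 in the shortest of 4 equal classes by the length of a gene's longest annotated transcript of any kind (57 to 1978 nt) and 0.048 in the longest. Of the 38 subunits 30 were in the shortest class, with a median of -0.098, 5 in the next (-0.039) and 3 in the one after (-0.066). With each library's trends in transcript length and GC content removed, an alternative chosen after the data were seen, the subunit median was -0.043, 35 of 38 subunits were lower and 1 was so at an unadjusted p under 0.05 (3.31% of all genes). Within the subunits, the length of the longest coding transcript, which can be shorter, and log2 fold change had a Spearman rho of 0.39 over 38 genes of the same libraries. The rho of this length with the deviation in a single mouse varied within genotypes. It was -0.32, -0.39, -0.11, 0.04 and 0.17 in AHRfl/fl mice 11, 12, 13, 15 and 33. In AHRmKO mice 8, 9, 19, 22 and 34 it was 0.39, 0.42, 0.06, 0.04 and -0.30.

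The subunits also varied together within genotypes. After subtraction of the genotype means, the median Pearson r of log2 CPM over the 10 mice was 0.63 for the 703 subunit pairs, with 65.1% above 0.5, where the median of all gene pairs was -0.00062 and 12.8% were above 0.5. These values share libraries, depth and normalization and are descriptions with no test. Ndufb10 (r = 0.98), Ndufa6 (0.94), Ndufv2 (0.93) and Ndufc2 (0.91) followed the median of the other subunits most closely, and Ndufa4l2 (0.03) and Ndufs1 (0.18) least. The gene farthest from 0 in the comparison therefore did not follow the mouse-to-mouse course of the rest. Subunits paired with nuclear subunits of complexes II to V gave a median r of 0.61, with assembly factors 0.38 and with the complex I subunits of the mitochondrial genome 0.14. Assembly factors among themselves gave 0.25 over 28 pairs.

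Assembly factors showed no common direction. AHRmKO had the lower mean in 5 of 8 and the higher mean in 3, with a median log2 fold change of -0.042 that turned to 0.0111 with length and GC trends removed and to 0.0064 without AHRmKO mouse 9, and 0 had an unadjusted p under 0.05 by edgeR. Ndufaf6, a factor needed for early steps of the ubiquinone arm, had 20.5, 24.2, 21.7, 21.4 and 18.7 CPM in AHRfl/fl and 13.5, 20.5, 20.3, 18.5 and 22.2 CPM in AHRmKO mice. Mouse 8 alone stood well below the others. The log2 fold change was -0.17 (SE 0.117, 95% interval -0.42 to 0.09), with an adjusted p of 0.834 by edgeR and an exact two-sided permutation p of 0.238, and it was -0.066 without mouse 8.

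Ndufaf1, a member of the complex that assembles the membrane arm, had log2 fold change -0.08 (SE 0.0728), and Ndufaf4, which works with Ndufaf3 on the ubiquinone module, -0.08 (SE 0.0605). Ndufaf4 had 36.5, 37.1, 34.5, 40.1 and 36.9 CPM in AHRfl/fl and 37.6, 34.3, 35.3, 33.1 and 34.4 CPM in AHRmKO mice, with overlapping groups. Ndufaf3 itself had means of 13.9 ± 1.48 and 13.8 ± 1.66 CPM (log2 fold change -0.0093, SE 0.0996), close to no difference, with an interval of -0.22 to 0.21 that still allows modest changes in both directions. Ndufaf8, the stabilising partner of Ndufaf5, had 15.6 ± 1.5 and 14.8 ± 1.47 CPM (log2 fold change -0.07, SE 0.0905). Without AHRfl/fl mouse 15 the log2 fold change of Ndufaf1 was -0.027 and that of Ndufaf4 -0.052, and without AHRmKO mouse 9 that of Ndufaf8 was -0.017.

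The factors with the higher mean in AHRmKO were Ndufaf2, Ndufaf5 and Ndufaf7. Ndufaf2, a paralog of Ndufa12 that holds its place late in assembly, had 10.9, 10.5, 11.1, 11.5 and 10.8 CPM in AHRfl/fl and 11.6, 11.8, 13, 11 and 11.2 CPM in AHRmKO mice. All 5 AHRmKO values lay above the AHRfl/fl mean, and the groups overlapped (log2 fold change 0.10, SE 0.0727, adjusted p = 0.845 by edgeR, exact two-sided permutation p = 0.0476 before adjustment). B230220B15Rik covers 65.7% of its exon length on the opposite strand, so reads of the pair may not be separable. Ndufaf5, which hydroxylates an arginine of Ndufs7, had 26.0, 31.3, 27.7, 30.1 and 30.9 CPM against 26.6, 29.7, 35.8, 30.4 and 33.2 CPM (log2 fold change 0.09, SE 0.0849), and Ndufaf7, a methyltransferase of the matrix arm, had means of 19.9 ± 1.18 and 20.8 ± 1.91 CPM (log2 fold change 0.07, SE 0.076). In both genes the groups overlapped in part. AHRmKO mice 19 and 34 lay above every AHRfl/fl mouse for Ndufaf5. For Ndufaf7 AHRmKO mice 9 and 19 did so (22.8 and 22.6 CPM against an AHRfl/fl maximum of 21.2 CPM). No AHRmKO mouse lay below every AHRfl/fl mouse in either gene. Without AHRmKO mouse 19 Ndufaf2 and Ndufaf5 had 0.061 and 0.041, and without AHRmKO mouse 9 Ndufaf7 had 0.037.

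The parts of complex I made outside these names were read from lists. The 7 mRNAs of the mitochondrial genome divided into 4 higher and 3 lower in AHRmKO, with a median log2 fold change of 0.02 and 0 at an unadjusted p under 0.05. The lowest p among them was that of mt-Nd6 (3090 ± 250 and 2855 ± 220 CPM, log2 fold change -0.11, adjusted p = 0.840 by edgeR), the only one on the light strand. AHRfl/fl mouse 12 had the lowest mitochondrial-genome median (-0.342) but a subunit median above 0, and AHRmKO mouse 8 the highest (0.144) with a subunit median of -0.098. Nuclear and mitochondrial complex I transcripts did not share an order of mice.

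Of 13 assembly factors under other names, 12 were tested and 6 were lower and 6 higher, with a median of 0.0062. By unadjusted p under 0.05, Tmem186 was higher (17.1, 18.3, 19.3, 19.2 and 17.6 CPM against 22.1, 21.9, 23.4, 19.1 and 19.6 CPM, log2 fold change 0.21, SE 0.0728, adjusted p = 0.665 by edgeR) and Dmac1 lower (29.4 ± 1.53 and 25.9 ± 2.71 CPM, log2 fold change -0.18, SE 0.076, adjusted p = 0.707 by edgeR). Both help build the membrane arm. For Tmem186 the groups overlapped only through AHRmKO mouse 22, which lay below AHRfl/fl mice 13 and 15. Acad9, Ecsit and Tmem126b, partners of Ndufaf1, had log2 fold changes of 0.06, -0.08 and 0.08.

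Among 12 regulators of mitochondrial biogenesis, 4 were higher and 8 lower, with 1 at an unadjusted p under 0.05. It was Esrra, an orphan receptor that acts with PGC-1 proteins on respiratory genes, with 140, 133, 154, 143 and 150 CPM in AHRfl/fl and 125, 129, 130, 134 and 129 CPM in AHRmKO mice. Only AHRmKO mouse 22 reached above the lowest AHRfl/fl mouse (log2 fold change -0.15, SE 0.0585, adjusted p = 0.665 by edgeR, exact two-sided permutation p = 0.0159). The fold change farthest from 0 on the list was that of Ppargc1b, with 7.88 ± 2.77 and 5.99 ± 1.13 CPM (SD, n = 5). All 5 AHRmKO mice lay below the AHRfl/fl mean, and the groups overlapped (log2 fold change -0.39, SE 0.226, adjusted p = 0.811 by edgeR). Ppargc1a had 60.0 ± 21.2 and 59.5 ± 18.3 CPM and Nrf1 12.7 ± 0.87 and 12.4 ± 0.905 CPM (SD, n = 5), without a difference beyond the spread.

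The nuclear subunits of complexes II to V, the most like group, gave close values. Of 45 tested 42 were lower in AHRmKO, with a median log2 fold change of -0.088 and 4 at an unadjusted p under 0.05, all lower. Cox5a, a subunit of complex IV, had the lowest p (350 ± 23.7 and 299 ± 23.6 CPM, log2 fold change -0.23, SE 0.0737, adjusted p = 0.627 by edgeR). Over the 10 mice their median deviation followed that of the complex I subunits (Spearman rho 0.83, Pearson r 0.88, with shared libraries). In these values the complex I subunits did not stand apart from the other nuclear subunits of the respiratory chain, and the difference between the lists was not tested.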

How the data were processed

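RNA of 10 gastrocnemius samples (5 AHRfl/fl, 5 AHRmKO) was selected for poly(A) and sequenced with paired-end reads. The authors trimmed reads with Trimmomatic 0.36, aligned them to GRCm38 with STAR 2.5.2b, counted reads on exons with featureCounts and deposited raw counts per gene, not normalized. The strand setting was not given in the sources used here. GENCODE M21 names matched 49056 of 49315 gene identifiers, and promoter windows came from RefSeq (GRCm38.p6).

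Counts were analysed with edgeR 4.0.16 in R 4.3.3: filterByExpr (minimum count 10, minimum total 15), TMM, the robust quasi-likelihood test of AHRmKO against AHRfl/fl, with p-values of 14714 genes adjusted after Benjamini and Hochberg. TMM library sizes entered the CPM, and a prior count of 2 was added for log2 CPM. Exact two-sided permutation tests over 252 assignments of the mice have a smallest p of 0.00794. Totals of 30393035 to 37954388 counts put the floor of 3 counts at 0.079 to 0.0987 CPM, for counting error only, since reads carry no molecular identifiers. Members and lists were chosen with earlier results of these data known. Genes were named when they had an unadjusted p under 0.05 or groups that did not overlap, when they were among the 3 largest fold changes per direction or the 3 highest and lowest levels of their class, when they were core subunits, or when the study names them (Ndufaf6, Ndufb8), and from each list the gene with the smallest p. Dmac1, Acad9, Ecsit, Tmem126b, Ppargc1a, Ppargc1b, Nrf1, Ndufb11, Ndufa12 and other subunits given in ranges were added after their values were seen. Coa1 was not matched. Alternatives were DESeq2 1.42.0, limma-voom (limma 3.58.1), other size factors, other filters, no robust estimation, 1 surrogate variable (sva 3.50.0), a slow-fibre covariate, removal of length and GC trends, and each mouse left out. The fits were tested on simulated data. Of the 46 members, 1 is counted in the totals, medians and tests but is not reported here by itself.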

Additional observations from a re-analysis of the deposited data

Results flagged for a closer look

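In 7 of 96 sets of 5 mice (a gene or a median within 1 genotype), 1 mouse stood apart, with a gap to its nearest neighbour of more than 0.71 of the range of the set. By chance about 4.8 of 96 would. AHRfl/fl mouse 12 was the lowest of its genotype for Ndufs1 (gap 0.8144 of the range) and for Ndufa10 (0.7415), an accessory subunit that resembles nucleoside kinases. AHRmKO mouse 34 was the lowest of its genotype for Ndufa10 (0.7557). AHRfl/fl mouse 33 was the highest for Ndufb2 (0.7819). AHRmKO mouse 19 was the highest for Ndufb2 (0.7283), for Ndufc2 (0.7178), a membrane-arm subunit, and for the median deviation of the 8 assembly factors (0.7611), where it had 0.139 and the other AHRmKO mice had -0.041 to 0.0019.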

How the results depend on the processing

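No member was called under any of 11 alternative settings, at an adjusted p of 0.05 or 0.1, or without any 1 of the 10 mice. The lowest adjusted p over these fits was 0.131 (Ndufa4l2, 1 surrogate variable). The subunit median lay between -0.115 (library size alone) and -0.043 (length and GC trends removed), and between -0.135 (without AHRmKO mouse 19) and -0.068 (without AHRmKO mouse 34). Library size alone moved the median of all genes from 0.0056 to -0.0123. The assembly factor median was -0.0851 with the slow-fibre covariate, -0.064 with library size alone and 0.0111 with length and GC trends removed and ran from -0.0716 to 0.0064 without single mice, turning without AHRmKO mouse 9. With the longest coding transcript as length, the median levels moved from 143 to 198 (subunits) and from 12.8 to 17.7 (assembly factors) CPM per kilobase. Of 483 values of the 23 named genes, 15 turned sign, in 4 genes, and 0 crossed the threshold. Ndufb2 was -0.0165 with library size alone, -0.0050 with 1 surrogate variable, -0.0214 with the slow-fibre covariate, -0.0231 with trends removed, and -0.0718 to 0.069 without single mice. Ndufaf3 was -0.0696 with the slow-fibre covariate, 0.0355 with trends removed and -0.0599 to 0.0361 without single mice. Ndufs8 was 0.0038 with trends removed, and Ndufs1 ran from -0.042 to 0.0387 without single mice. The causes were not tested. No paired analysis was possible because the animal numbers do not repeat between genotypes. With 5 mice per genotype, unadjusted 95% intervals reached about 0.15 to each side for most subunits, and log2 fold changes of -0.17 (Ndufb5) and -0.42 (Ndufa4l2) did not pass the adjusted test.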
